A study of Mus musculus and blank sample with 91 samples.

Results

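Fecal communities of 6 mice injected with Complete Freund's Adjuvant (CFA) alone were compared with those of 6 naïve mice at 14 days post immunization (dpi). The members were taken from the sample labels by treatment and day, without use of any measured value, and make up 12 of the 88 mouse samples with counts (91 samples in the labels). The series followed experimental autoimmune encephalomyelitis (EAE), a mouse model of multiple sclerosis, by 16S rRNA gene sequencing of feces in EAE, CFA and naïve mice, once before injection (-2 dpi) and at 4 later days (8, 14, 19, 29). All 12 mice were female C57BL/6 animals (C57BL/6J in the study's methods) with a clinical score of 0, bought at 8 weeks of age. The CFA mice received the adjuvant emulsion under the skin, at the dose given to EAE mice, and no myelin peptide. The naïve mice received no treatment. Pertussis toxin is described for EAE mice, and the sources used here do not state whether CFA mice received it. CFA against naïve therefore asks what went with the adjuvant treatment without the peptide, at the day when EAE mice first showed symptoms.

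Mice were housed 2 to 3 to a cage and treatment was assigned by cage. The labels do not give the cage, so cage and treatment cannot be told apart in any comparison of the groups below. Each mouse was also sampled 2 days before the injection, and that sample is the measure of what already separated the animals. A mouse is 1 sample per day, and p-values measure the spread between mice. They treat mice of the same cage as independent. The main model of counts used below (edgeR) also treats samples of a mouse on different days as independent.

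CFA is an emulsion of mineral oil with killed mycobacteria that strongly activates innate immune cells and is used to break tolerance to a co-injected antigen. Most bacteria of the mouse colon belong to the Firmicutes, in which the clostridial families Lachnospiraceae and Ruminococcaceae ferment plant fibre to short-chain fatty acids such as butyrate, and to the Bacteroidetes. Lactobacillaceae make lactic acid, and Akkermansia, the gut genus of the Verrucomicrobia, feeds on intestinal mucin.

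The values are counts of amplicon sequence variants (ASVs), exact sequences of the V3-V4 region, and are given below as percent of a sample's counts. Percents share a closed total, so a higher percent of 1 taxon can go with fewer cells of another, and neither can be told apart from a change in DNA per cell or gene copies. Total counts ran from 52713 to 85368 in CFA mice (mean 69404 ± 12562, SD, n = 6) and from 42233 to 65671 in naïve mice (mean 55622 ± 8370, SD, n = 6). The difference of 13782.5 counts gave p = 0.0519 in a two-sided exact permutation test. A floor of 3 counts was 0.00351% to 0.0071% of a sample. PCR counts are not independent molecules, so such floors cover counting error only. The lowest ASV count above 0 ran from 2 to 76 by sample (76 in CFA mouse 546, 67 in naïve mouse 559), so lower counts may be missing in some samples. Folds given below with "at least" are set against the floor of 3 counts and are not bounds on true abundance. Body weight was 18.7 ± 0.691 g in CFA and 18.4 ± 0.878 g in naïve mice (SD, n = 6 each, exact permutation p = 0.610).

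What the deposited ASVs count is set in part by the primers, which have degenerate positions, places where a mixture of bases is built in. The forward primer of 17 bases has 2 such positions and 8 forms, and the reverse primer of 21 bases has 2 and 9 forms, giving 72 combinations. Of 2295 deposited ASVs, 2274 still carried both primers at their ends, so 1 bacterial sequence was present as up to 34 ASVs that differ only in primer letters. Akkermansia muciniphila sequence 1, for example, was split over 25 ASVs. With primers removed the table held 507 sequences, called merged sequences here, of which 184 had counts in the 12 samples.

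Lachnospiraceae and Ruminococcaceae made up a larger share of the community in every CFA mouse than in any naïve mouse at 14 dpi. Both are strict anaerobes of the Clostridia that break down fibre. They were the 2 of 23 families (8.7%) called by exact permutation tests of percents, adjusted by Benjamini-Hochberg, and the same 2 families (8.7%) were the ones whose groups did not overlap. With 6 against 6 samples the smallest p these two-sided tests can give is 0.00216.

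Lachnospiraceae lay at 31.9% (lowest), 34.9% (median) and 68.1% (highest) in CFA mice against 10.6%, 18.3% and 23.6% in naïve mice. CFA mice 545 and 546 were the high samples, at 68.1% and 59.8%, and the other 4 CFA mice held 31.9% to 36.3%. The means were 43.8% ± 15.9 and 17.5% ± 5.53 (SD, n = 6 each), a ratio of 2.51 (exact permutation p = 0.00216, adjusted p = 0.0249). Ruminococcaceae lay at 7.59%, 11.3% and 13.8% in CFA mice and at 1.63%, 5.58% and 6.64% in naïve mice. CFA mice 543 and 544 held 7.59% and 8.13% and the other 4 CFA mice 11.2% to 13.8%, and naïve mouse 559 stood below the other naïve mice. The means were 10.8% ± 2.46 and 5.12% ± 1.79 (SD, n = 6 each), a ratio of 2.11 (exact permutation p = 0.00216, adjusted p = 0.0249).

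Both calls depended on the test and on which mice were included. CFA mice 545 and 546 stood apart from the other CFA mice. Without them the differences in percentage points were 16.3 for Lachnospiraceae and 5.05 for Ruminococcaceae (exact permutation adjusted p = 0.0548 each). With so few mice, both families gave the smallest p that the test can reach. The remaining CFA mice still lay above every naïve mouse (lowest 31.9% against highest 23.6%, and 7.59% against 6.64%), so these lost calls do not come from overlap. Leaving out single mice ended the call of Lachnospiraceae for naïve mouse 563 and that of Ruminococcaceae for naïve mice 558, 562 and 563 (exact permutation adjusted p = 0.0747 each). In the edgeR quasi-likelihood fit of counts, neither family passed: the log2 differences were 0.84 ± 0.63 and 0.65 ± 0.46 (SE, n = 6 each, edgeR adjusted p = 0.468 each). That fit scales libraries by TMM factors, and with total counts alone the log2 differences of all 18 families with a difference moved up by a median of 0.27. Lachnospiraceae then stood at 1.33 (edgeR adjusted p = 0.131) and Ruminococcaceae at 1.07 (edgeR adjusted p = 0.115), and neither passed.

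**Figure D1:**
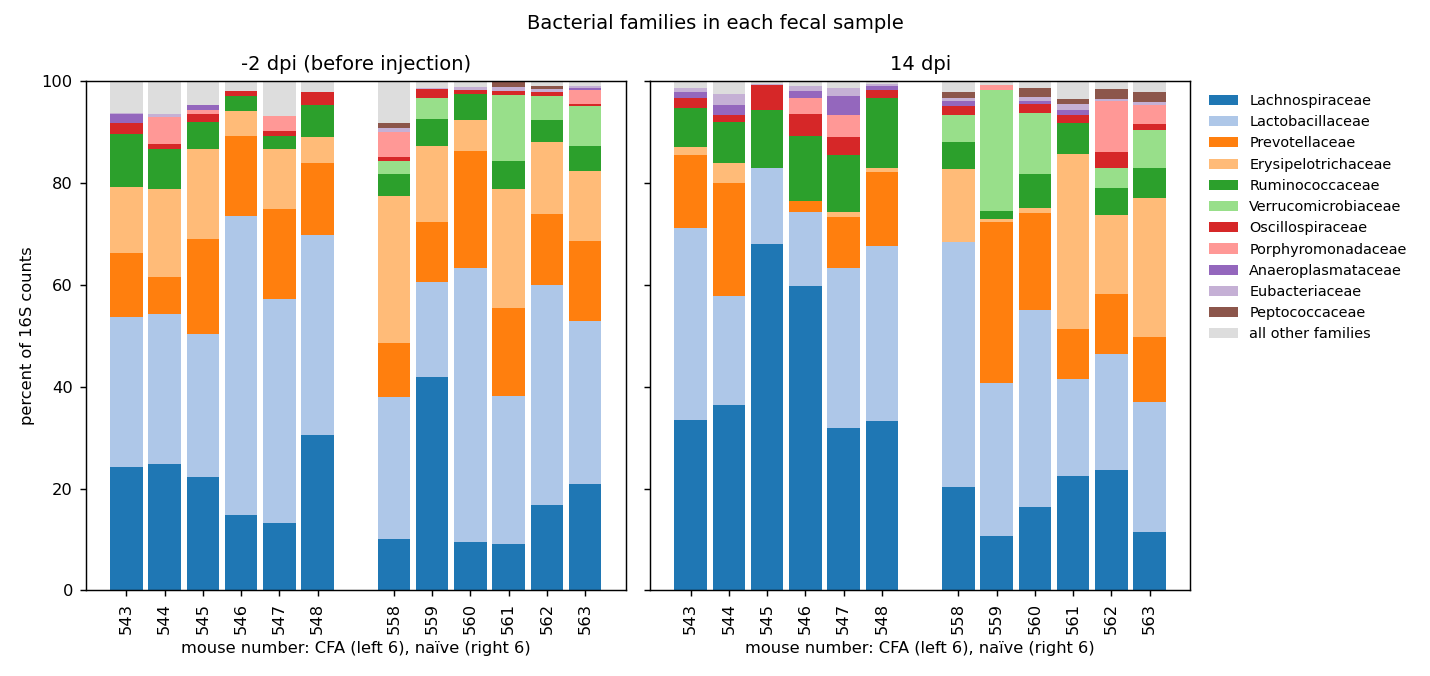
Families as percent of 16S counts in each sample of the 6 CFA and 6 naïve mice, at -2 dpi and at 14 dpi, one stacked bar per mouse with the families of at least 1% in either group named. At 14 dpi the lowest bar segment, Lachnospiraceae, spans 31.9% to 68.1% in CFA mice and 10.6% to 23.6% in naïve mice, and the Verrucomicrobiaceae segment is absent from CFA mice on both days.

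The edgeR fit called 4 of 23 families (17.4%), 3 lower (13%) and 1 higher (4.35%) in CFA mice. Verrucomicrobiaceae, all of it Akkermansia, had no counts in any CFA mouse and lay at 0%, 6.36% and 23.7% (lowest, median, highest) in naïve mice. It was present in 5 of 6 naïve mice, with a mean of 8.72% ± 8.34 (SD, n = 6). Against a floor of 3 counts in each CFA sample, for counting error alone, this is at least 1962-fold lower in CFA mice (edgeR adjusted p = 0.000294, exact permutation test of percents adjusted p = 0.0697, n = 6 each). Peptococcaceae, anaerobes of the Clostridia, were also at 0 in every CFA mouse and reached 2.02% in naïve mice, with counts in 5 of 6 and a mean of 1.31% ± 0.749 (SD, n = 6). They were at least 294-fold lower in CFA mice (edgeR adjusted p = 0.00252).

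Erysipelotrichaceae, Firmicutes outside the Clostridia, lay at 0%, 0.773% and 3.81% in CFA mice against 0.596%, 15.0% and 34.2% in naïve mice. The groups overlapped, since naïve mice 559 and 560 held under 1%. The means were 1.16% ± 1.43 and 15.5% ± 13.6 (SD, n = 6 each), a log2 difference of -3.73 ± 1.38 (SE, edgeR adjusted p = 0.0477). This call was lost in 9 of 12 fits that left out 1 mouse, where the edgeR adjusted p ran from 0.025 to 0.108, and the exact permutation test of percents gave an adjusted p of 0.114. Christensenellaceae, a low-abundance family of the Clostridia, had counts in 3 of 6 CFA mice (mean 0.205% ± 0.234, SD, n = 6) and in no naïve mouse, at least 37.2-fold higher (edgeR adjusted p = 0.0477). That call was lost in 11 of 12 fits without 1 mouse (edgeR adjusted p 0.0417 to 0.108). The family name also covered its sequences only in part: of the counts of Christensenella_CAG-475 sequence 1, 54.8% were named Christensenella and 45.2% Clostridiales_vadinBB60. With unified names, a setting chosen after seeing the data, the family had counts in 4 CFA mice (mean 0.284% ± 0.231, SD, n = 6, exact permutation p = 0.0606). That sequence was already in CFA mouse 545 at -2 dpi, at 0.310%, under the other name.

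The other families of at least 1% did not pass either test. Lactobacillaceae, the most abundant of them, lay at 14.5%, 26.5% and 37.6% in CFA mice and at 19.1%, 27.8% and 48% in naïve mice (means 25.7% ± 10.1 and 30.7% ± 10.8, SD, n = 6 each, exact permutation p = 0.431). CFA mice 545 and 546 held the lowest values, 14.9% and 14.5%, and the ranges overlapped widely. Prevotellaceae, fibre degraders of the Bacteroidetes, ranged from 0% to 22.2% in CFA mice and from 0% to 31.5% in naïve mice (means 10.5% ± 8.33 and 14.2% ± 10.5, exact permutation p = 0.528, n = 6 each). Mean percents of CFA against naïve mice were 2.93 and 1.64 for Oscillospiraceae, 1.51 and 0.430 for the wall-less Anaeroplasmataceae, 1.05 and 0.578 for Eubacteriaceae, and 1.26 and 2.45 for Porphyromonadaceae. Clostridiaceae, listed with the Clostridia families the study named, had counts in 2 CFA mice (mean 0.0766%) and 5 naïve mice (mean 0.776%, exact permutation adjusted p = 0.0697, n = 6 each). Coriobacteriaceae, the only Actinobacteria family here, had counts in 3 CFA and 6 naïve mice, with means of 0.269% and 0.872% (exact permutation adjusted p = 0.0996).

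At the phylum rank no difference of percents passed, at 0 of 6 phyla (0%). Firmicutes took 86.4% ± 8.77 in CFA mice and 73.3% ± 17.6 in naïve mice, and Bacteroidetes 11.8% ± 7.85 and 16.6% ± 11 (SD, n = 6 each). Verrucomicrobia and Actinobacteria each gave an adjusted p of 0.0779 in the exact permutation test, with unadjusted p of 0.0152 and 0.026. Markers of sequence from outside the bacterial gut community stayed near 0: Pseudomonas E reached 0.0436% in 1 CFA mouse and eukaryotic sequence 0.0362% in 1 naïve mouse.

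The samples of -2 dpi showed which of these differences were there before the injection. Akkermansia was already absent from all 6 CFA mice and present in 5 of 6 naïve mice at that day (mean 5.39%), and CFA mice had no Akkermansia counts at any of the 5 days. Peptococcaceae were likewise at 0 in CFA mice and at 0.473% in naïve mice at -2 dpi. Both families passed the edgeR test at -2 dpi (edgeR adjusted p = 0.000728 and 0.00665), 2 of 23 families (8.7%) in all. Erysipelotrichaceae were at 11.6% and 16.9% before the injection, Lachnospiraceae at 21.7% and 18.0%, and Ruminococcaceae at 5.87% and 4.86%, none of them called by either test.

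The change of each mouse between -2 and 14 dpi gave the comparison that removes these starting levels. It also brings in the spread of the -2 dpi samples, as deviations of the same mouse at the 2 days correlated at a median of only 0.0156. Lachnospiraceae gained 22.1 ± 18.7 percentage points in CFA mice, with a gain in 6 of 6, and changed by -0.57 ± 16.9 points in naïve mice, with a gain in 4 of 6 (SD, n = 6 each). The difference between groups, 22.7 points, gave p = 0.0541 in the exact permutation test and an adjusted p of 0.207. Ruminococcaceae gained 4.92 ± 5.05 points in CFA mice and 0.259 ± 1.97 points in naïve mice (exact permutation p = 0.0541, adjusted p = 0.207, n = 6 each). Erysipelotrichaceae were lower at 14 than at -2 dpi in 6 of 6 CFA mice (mean change -10.5 points) and in 3 of 6 naïve mice (-1.39 points). The difference of these changes gave an exact permutation adjusted p of 0.392.

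Of the changes since -2 dpi, 2 of 23 families (8.7%) passed the exact permutation test, 1 with a gain and 1 with a loss (4.35% each) in CFA relative to naïve mice. Eubacteriaceae, all of them named Eubacterium coprostanoligenes in these samples, gained 0.899 ± 0.636 points in CFA mice, with a gain in 6 of 6, and 0.0181 ± 0.237 points in naïve mice (exact permutation adjusted p = 0.0498). They had started lower in CFA mice, at 0.152% against 0.56% (exact permutation p = 0.0216), and stood at 1.05% and 0.578% at 14 dpi (exact permutation p = 0.214), so the group means changed order. Part of the 0.881 points between the changes is thus the difference of -0.407 points at -2 dpi. The adjusted p rests on a tie of the unadjusted p with Peptostreptococcaceae, and edgeR did not call this change (edgeR adjusted p = 0.873). Peptostreptococcaceae, anaerobes that in this table are the genus Romboutsia, held 2.85% ± 1.70 in 6 of 6 CFA mice at -2 dpi and 0.111% in 1 naïve mouse. They had no counts in any of the 12 mice at 14 dpi (difference of the changes -2.74 points, exact permutation adjusted p = 0.0498). With both groups at 0 at 14 dpi, this test only restates the difference at -2 dpi, which gave the same unadjusted exact permutation p of 0.00433 and an adjusted p of 0.0996, and it does not show that the groups responded differently. In edgeR no family and no genus passed the contrast of changes, while 2 families and 7 genera had an unadjusted p under 0.05, and DESeq2 called 2 families and 9 genera.

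**Figure D2:**
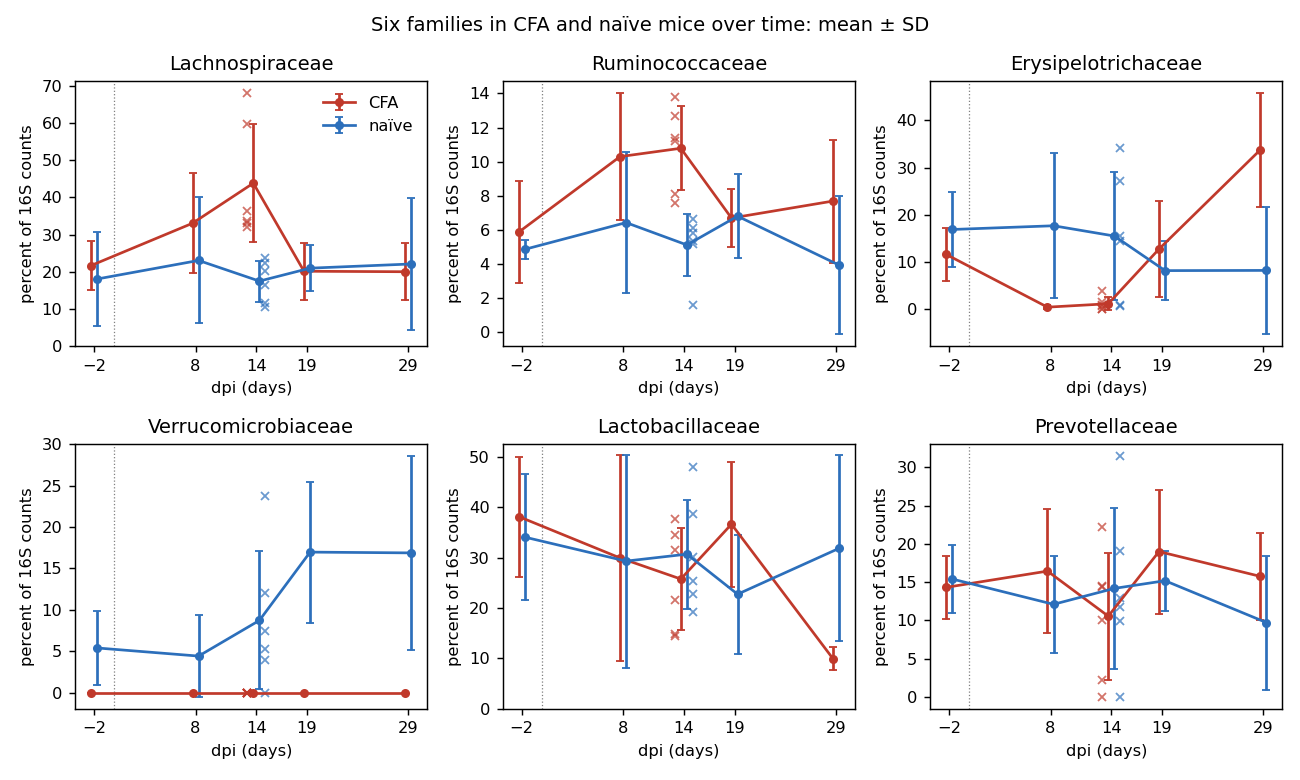
Mean percent of 16S counts of 6 families against dpi in CFA (red) and naïve (blue) mice, with bars of 1 SD (n = 6 per point, 5 for CFA at 29 dpi), crosses for the single mice at 14 dpi, and a dotted line at the day of injection. The Lachnospiraceae means are furthest apart at 14 dpi (43.8% and 17.5%) and close at 19 dpi (20.1% and 21%), while Verrucomicrobiaceae stay at 0 in CFA mice at every day.

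Within the Lachnospiraceae the difference was carried by several genera. Of its 21 genera tested, 16 had a higher mean in CFA mice and 5 a lower one, with a median difference of 0.469 percentage points. For the 18 genera of Ruminococcaceae these counts were 16 and 2 and the median was 0.174, and for all 65 genera tested they were 42 and 17 with a median of 0.0663. The exact permutation test of percents called 3 of 65 genera (4.62%), all of them Lachnospiraceae, higher in CFA mice and without overlap of the groups. No other genus had groups that did not overlap (3 of 65, 4.62%). edgeR called 6 of 65 genera (9.23%), 3 higher and 3 lower (4.62% each).

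Roseburia, a flagellated butyrate producer, lay at 5.09%, 6.05% and 21.2% (lowest, median, highest) in CFA mice and at 0%, 1.10% and 2.65% in naïve mice. CFA mice 545 and 546 were again highest, at 21.2% and 15.8%, and 3 naïve mice had no counts. The means were 9.89% ± 6.90 and 1.21% ± 1.34 (SD, n = 6 each), 8.15-fold higher in CFA mice (exact permutation p = 0.00216, adjusted p = 0.0469). Lachnospira, a pectin fermenter, lay at 0.696%, 1.12% and 1.75% against 0%, 0.0891% and 0.253%. No CFA mouse fell within the naïve range. The means of 1.16% ± 0.437 and 0.107% ± 0.12 (SD, n = 6 each) were 10.9-fold apart (exact permutation adjusted p = 0.0469). In edgeR neither genus passed (log2 difference 2.46 ± 1.99 and 3.10 ± 2.37, SE, edgeR adjusted p = 0.596 and 0.547). At -2 dpi Roseburia had been at 4.48% and 1.96%, and Lachnospira at 0.505% and 0.372%, in CFA and naïve mice. The exact permutation test of the change since -2 dpi called 0 of 65 genera (0%), with a lowest adjusted p of 0.141 and 8 genera at an unadjusted p under 0.05. It gave Roseburia a p of 0.0866 (adjusted p = 0.492) and Lachnospira a p of 0.039 (adjusted p = 0.317).

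Anaerostipes, which turns lactate and acetate into butyrate, had counts in 6 of 6 CFA mice and in no naïve mouse. It lay at 1.07%, 5.15% and 8.54% in CFA mice (mean 4.79% ± 2.66, SD, n = 6). CFA mice 545 and 546, the highest for Roseburia, were the lowest for this genus, at 1.07% and 2.57%. Against a floor of 3 counts in each naïve sample it was at least 870-fold higher in CFA mice (exact permutation adjusted p = 0.0469, edgeR adjusted p = 0.00234). The same presence and absence held before the injection, with 4.27% ± 1.34 in 6 of 6 CFA mice and none in naïve mice at -2 dpi, and the change since then gave an exact permutation p of 0.747. The genus was the only one called by both tests at 14 dpi.

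The percent calls of Roseburia and Anaerostipes were lost when any 1 of the 6 naïve mice was left out. That of Lachnospira was lost for all of them but mouse 559. None was lost without a single CFA mouse. Anaerostipes had no counts in any naïve mouse, so leaving 1 out changed neither its difference nor its separation, only the splits available to the test. Without mice 545 and 546 no genus and no family passed the percent test. Roseburia, Lachnospira and Anaerostipes still did not overlap there, and each gave the smallest p that the test can reach with so few mice. The differences in points over all these settings stayed between 4.38 and 9.64 for Roseburia, 0.866 and 1.15 for Lachnospira, and 4.04 and 6.28 for Anaerostipes.

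Stomatobaculum, a further genus of the Lachnospiraceae, had counts in 5 of 6 CFA mice and no naïve mouse, with a mean of 1.87% ± 1.32 (SD, n = 6) and a highest value of 3.35%. It was at least 340-fold higher in CFA mice (edgeR adjusted p = 0.00406), and at -2 dpi it had been in 5 CFA mice (mean 0.789%) and no naïve mouse. Ruminococcaceae_UCG-013, known from sequence only, had counts in 5 CFA mice and no naïve mouse at 14 dpi (mean 0.651%, at least 118-fold higher, edgeR adjusted p = 0.00777). It had been in 4 CFA mice and 1 naïve mouse at -2 dpi. The 3 lower genera were Akkermansia (edgeR adjusted p = 0.000161), Peptococcus-rc4-4 (edgeR adjusted p = 0.00406) and Lachnospiraceae_UCG-001. The last had no counts in CFA mice and 0.383% ± 0.525 (SD, n = 6) in naïve mice, with counts in 3 of 6 (at least 86.1-fold lower, edgeR adjusted p = 0.0442, lost in 8 of 12 fits without 1 mouse).

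**Figure D3:**
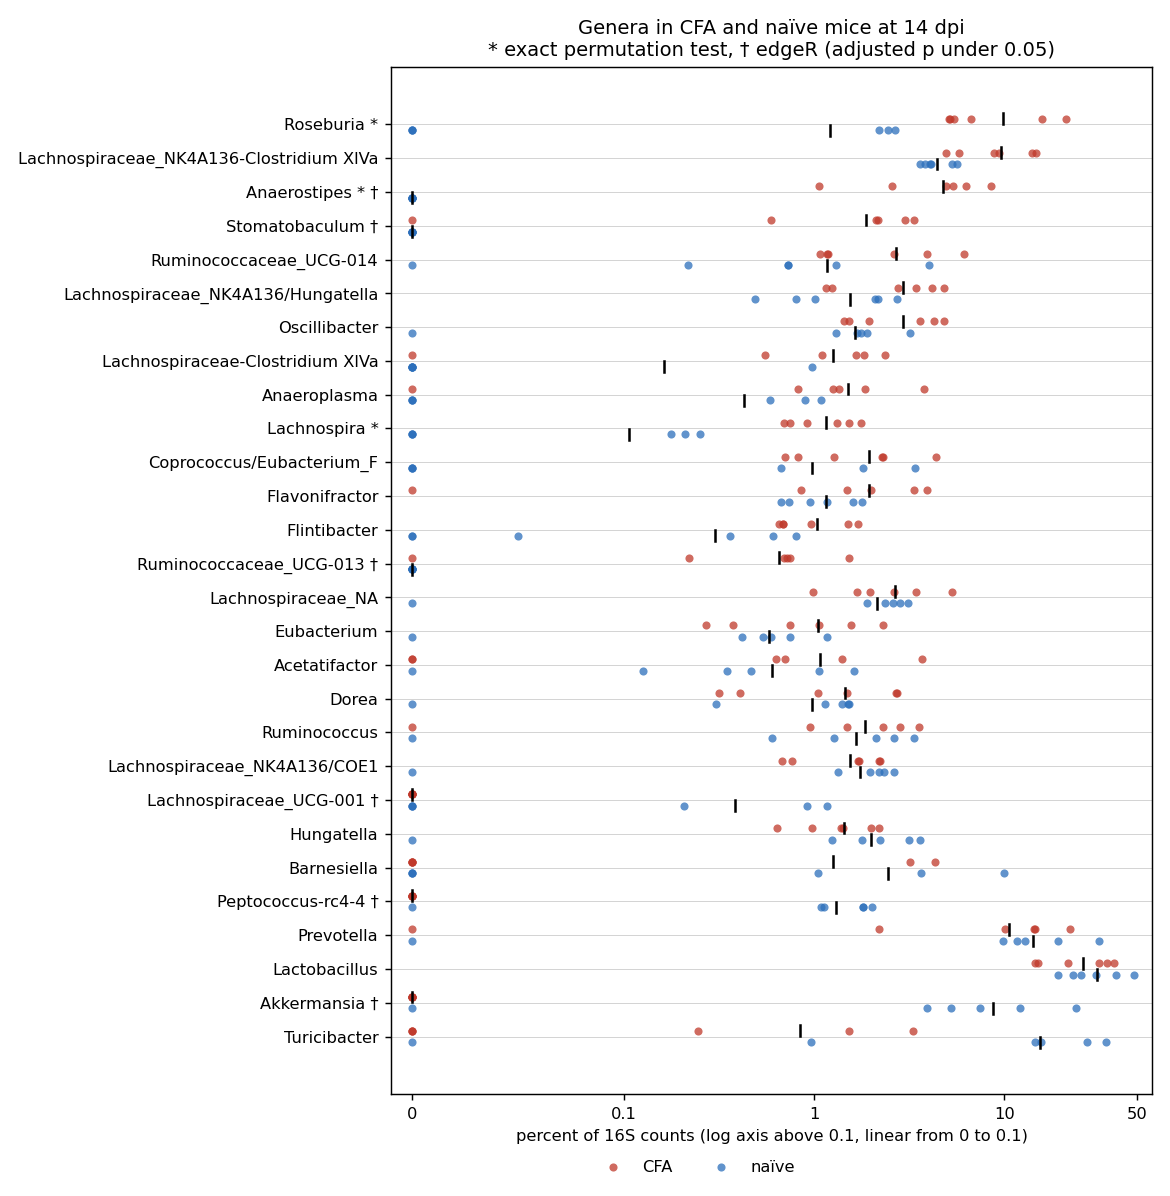
Percent of 16S counts of genera with a mean of at least 1% in either group or called by edgeR, for each CFA (red) and naïve (blue) mouse at 14 dpi, ticks marking the group means. The axis is logarithmic above 0.1% and linear below, and Roseburia, Anaerostipes and Lachnospira are the genera whose red and blue points do not overlap.

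The remaining genera of at least 1% passed neither test. Lachnospiraceae_NK4A136-Clostridium XlVa, fibre-associated and common in mice, lay at 4.94%, 9.10% and 14.7% in CFA and at 3.61%, 4.08% and 5.65% in naïve mice. The ranges overlapped at their edges (means 9.61% ± 4.06 and 4.43% ± 0.845, SD, n = 6 each, exact permutation adjusted p = 0.0985). Turicibacter, the main genus of Erysipelotrichaceae, had counts in 3 of 6 CFA mice (mean 0.845% ± 1.34) and 5 of 6 naïve mice (mean 15.4% ± 13.7, SD, n = 6 each, exact permutation adjusted p = 0.169, edgeR adjusted p = 0.0796). Flintibacter, a butyrate producer of the Ruminococcaceae, was at 1.03% ± 0.461 and 0.303% ± 0.343 (exact permutation adjusted p = 0.0985, n = 6 each). Of the 3 other Ruminococcaceae genera above 1%, mean percents in CFA and naïve mice were 2.69 and 1.17 for Ruminococcaceae_UCG-014, 1.93 and 1.15 for Flavonifractor, and 1.86 and 1.66 for Ruminococcus. Among further Lachnospiraceae names, they were 2.93 and 1.55 for Lachnospiraceae_NK4A136/Hungatella, 2.67 and 2.13 for Lachnospiraceae_NA, 1.45 and 0.980 for Dorea, and 1.07 and 0.604 for Acetatifactor. Lachnospiraceae-Clostridium XlVa was at 1.25% and 0.162% (exact permutation adjusted p = 0.151, n = 6 each). Oscillibacter, Anaeroplasma, Eubacterium and Barnesiella had the values given above for Oscillospiraceae, Anaeroplasmataceae, Eubacteriaceae and Porphyromonadaceae. Hungatella and Lachnospiraceae_NK4A136/COE1 had lower means in CFA mice, at 1.44% against 2.00% and 1.55% against 1.74%. A single merged sequence bore both Hungatella names, 55.6% of its counts as Hungatella and 44.4% as Lachnospiraceae_NK4A136/Hungatella. With unified names, a setting chosen after seeing the data, CFA and naïve means were 2.46% and 3.27% for Hungatella. For Lachnospiraceae_NK4A136/Hungatella they were then 1.64% and 0.276%.

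The functional lists were chosen with earlier results of these data known and are described by counts. Of 8 listed butyrate-producing genera 7 were in the table, and 6 had a higher and 1 a lower mean in CFA mice, with a median difference of 0.732 percentage points against 0.0663 for all genera. Their summed share was 18.2% ± 6.48 in CFA mice and 3.09% ± 1.60 in naïve mice (SD, n = 6 each), of which Roseburia and Anaerostipes gave the most. edgeR called 1 of the 7 and the percent test 2, all higher, where over all genera the 2 tests called 9.23% and 4.62%. The 3 mucin and fibre degraders in the table, Akkermansia among them, summed to 1.90% ± 1.24 in CFA and 10.4% ± 7.76 in naïve mice. The lower sum was that of Akkermansia, since the other 2 had higher means in CFA mice and the median difference of the 3 was 0.0399 percentage points. Bacteroidales genera summed to 11.8% and 16.6% and lactic acid bacteria to 25.7% and 30.7%, with no member called.

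A single taxon name did not always stand for 1 sequence. Of the merged sequences, 8 bore more than 1 family name among their primer variants and held 0% to 22.7% of a sample's counts, and 31 bore more than 1 genus name (7.53% to 32.8%, median 22.6%). The most abundant case was Prevotella_NA sequence 1, for which 29 ASVs with 85.3% of its counts were named Prevotella and 5 ASVs with 14.7% were named Barnesiella. All Barnesiella counts of the 12 samples came from this sequence, so Porphyromonadaceae and Prevotellaceae are not separate measurements here. Stomatobaculum was a comparable case, since 68.4% of the counts of Lachnospiraceae_NK4A136_NA sequence 2 carried its name and the rest the name Lachnospiraceae_NK4A136-Clostridium XlVa.

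With every variant given the name of its most abundant form, a setting chosen after seeing the data, the same 2 families passed the percent test. The genera then numbered 4: the 3 above and Lachnospiraceae_NK4A136-Clostridium XlVa, at 11.9% ± 4.66 and 4.43% ± 0.845 (SD, n = 6 each, exact permutation adjusted p = 0.0341). Its CFA values of 7.97% to 19.9% then lay above the naïve range of 3.61% to 5.65%. Prevotella took 11.8% ± 7.85 and 16.6% ± 11, and Barnesiella and Stomatobaculum no longer appeared as genera with counts.

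At the level of merged sequences, edgeR called 17 of 202 (8.42%), 7 higher (3.47%) and 10 lower (4.95%). This split depended on the filter, as sequences with counts in at least 3 of the 12 mice gave 18 higher and 7 lower calls, and DESeq2 47 and 27. Of the 17 calls, 10 rested on counts in at least 3 of the 12 mice, and the other 7 on 1 or 2 mice. Among ASVs as deposited 34 of 648 (5.25%) passed, 25 of them with counts in fewer than 3 mice. Of these 34 calls, 4 were higher and 30 lower, where the filter on the 12 mice gave 29 and 15 and DESeq2 96 and 80. The species fit called 6 of 95 (6.32%), namely Akkermansia muciniphila, Anaerostipes_NA, Peptococcus niger, Stomatobaculum longum, Ruminococcaceae_CAG-41_sp1 and Lachnospiraceae_UCG-001_NA. Each of these belongs to a genus called above.

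Several called merged sequences were in CFA mice and in no naïve mouse. Besides Anaerostipes_NA sequence 1, Lachnospiraceae_NK4A136_NA sequence 2 had counts in 6 of 6 CFA mice (mean 2.61% ± 1.20, SD, n = 6) and no naïve mouse (at least 474-fold, edgeR adjusted p = 0.0269). Roseburia 14-2 sequence 2 was in 5 CFA mice (mean 2.42%) and Roseburia 14-2-A2 sequence 1 in 4 (mean 2.27%), and neither had counts in a naïve mouse at 14 dpi or at -2 dpi (edgeR adjusted p = 0.0269 and 0.0289). These 3 sequences had been in 5, 5 and 3 CFA mice before the injection.

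The species name Eubacterium F xylanophilum, a xylan-degrading butyrate producer, covered 3 sequences in these mice, with 1 called higher and 1 called lower. Sequence 1 was in 5 of 6 CFA mice (mean 1.84%) and in no naïve mouse at 14 dpi (edgeR adjusted p = 0.0269), although it had been in 4 CFA and 5 naïve mice at -2 dpi. Sequence 2 was in no CFA mouse and in 3 naïve mice at 14 dpi (mean 0.979%, edgeR adjusted p = 0.0421), and in 1 naïve mouse before. Sequence 3 was in CFA mouse 546 only, at 0.702%. At the genus rank, Coprococcus/Eubacterium_F, the means were 1.95% and 0.979% and no test passed.

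In all, 138 merged sequences had counts in a CFA mouse and 102 in a naïve mouse at 14 dpi, with 56 in both. There were 8 sequences in at least 5 CFA mice and no naïve mouse, of which 3 met the same rule at -2 dpi, when 5 sequences did. The reverse held for 3 sequences at 14 dpi and 1 at -2 dpi, with Akkermansia muciniphila sequence 1 on both days. Flintibacter butyricus sequence 1 was one of those that differed by day: it was in 6 CFA and no naïve mice at 14 dpi (mean 0.684%, edgeR adjusted p = 0.0646), and in 5 CFA mice and 1 naïve mouse before.

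**Figure D4:**
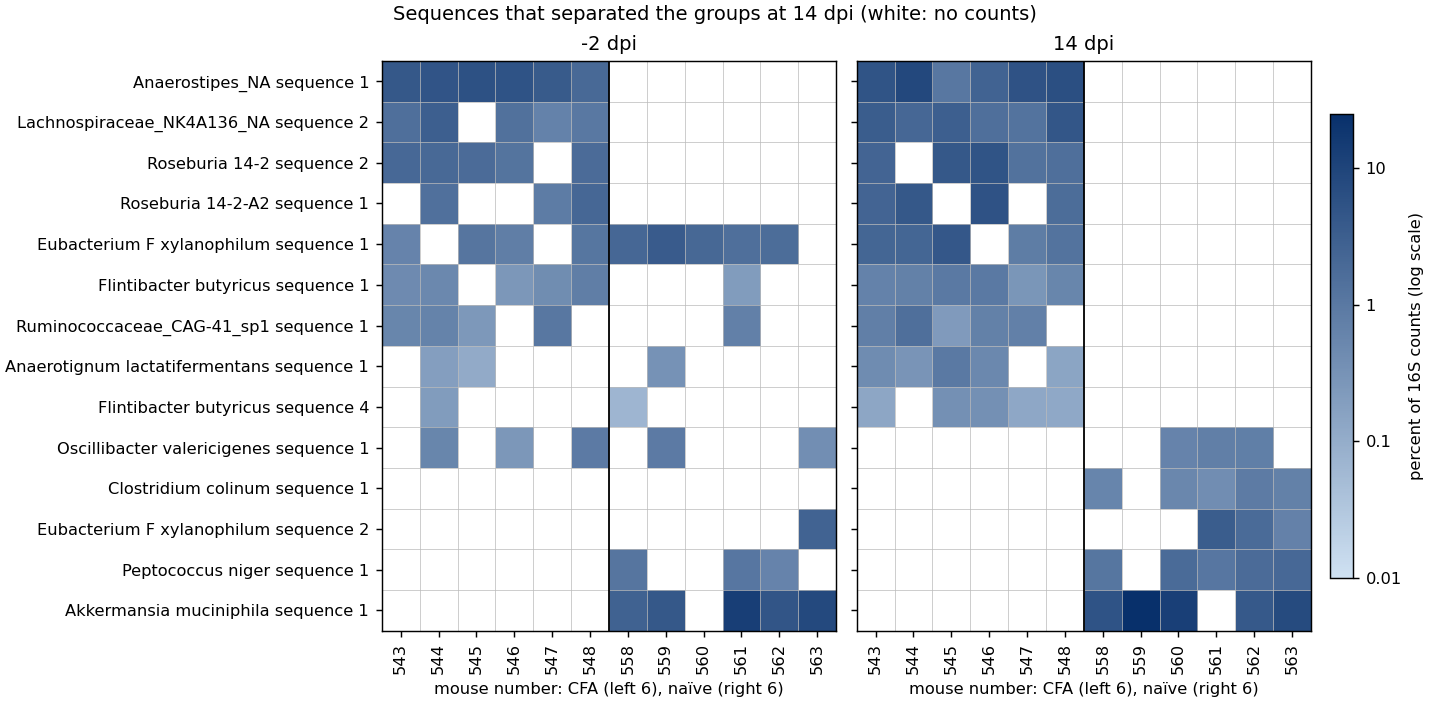
Percent of 16S counts (colour, log scale, white for no counts) of merged sequences that were called with counts in at least 3 mice or were in at least 5 mice of one group and none of the other at 14 dpi, in each mouse at -2 dpi (left) and 14 dpi (right). The rows of Anaerostipes and Akkermansia are filled on one side on both days, whereas Eubacterium F xylanophilum sequence 1 fills 5 naïve mice at -2 dpi and none at 14 dpi.

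Lachnospiraceae counts at 14 dpi were divided by where each sequence had been seen at -2 dpi. Sequences seen before the injection in both groups took 21% in CFA and 10.8% in naïve mice at 14 dpi, having been at 9.79% and 14.2%. Those seen before only in CFA mice averaged 11.9% then and 16.9% at 14 dpi in CFA mice, and 2.80% at 14 dpi in naïve mice. Sequences seen in naïve mice only took 1.61% and 1.70%, and those seen in neither group 4.25% and 2.32%. The division is a description, since it uses counts of the same mice. For Ruminococcaceae, sequences seen in both groups took 5.77% and 3.05% at 14 dpi, from 3.60% and 4.34%.

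More different sequences of both families were also detected in CFA mice. These numbers were not matched for depth or for the share of the family, both larger in CFA mice, and their p-values are not adjusted. The number of Lachnospiraceae sequences per mouse was 19 to 41 in CFA and 12 to 19 in naïve mice (means 27.5 ± 7.40 and 15.7 ± 2.58, SD, n = 6 each, exact permutation p = 0.00433). For Ruminococcaceae it was 11 to 18 against 3 to 11 (15.8 ± 2.79 and 7.83 ± 2.79, exact permutation p = 0.00433). At -2 dpi the numbers were 17.2 and 14.3, and 10.8 and 7.83, with exact permutation p of 0.416 and 0.177 (n = 6 each).

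Alpha diversity depended on how the sequences were counted. With primer variants merged, the Shannon index lay at 2.73, 2.89 and 3.67 in CFA mice and at 2.02, 2.25 and 2.59 in naïve mice (lowest, median, highest). The groups did not overlap, and mice 545 and 546 gave the highest values. The means were 3.03 ± 0.358 and 2.30 ± 0.204 (SD, n = 6 each, exact permutation p = 0.00216, adjusted p = 0.0173 over 8 comparisons). Richness, the number of merged sequences, was 43 to 71 in CFA and 25 to 44 in naïve mice (56.5 ± 10.2 and 36.7 ± 6.77, adjusted p = 0.0173 by exact permutation). The Simpson index was 0.887 ± 0.0484 and 0.809 ± 0.0427, and the Inverse Simpson index 11.1 ± 6.52 and 5.47 ± 1.24 (exact permutation adjusted p = 0.026 each, n = 6). Those last 2 calls were lost without mice 545 and 546 (exact permutation adjusted p = 0.122 each), and Shannon and richness were kept (adjusted p = 0.0381 each by exact permutation).

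With the ASVs as deposited none of the 4 measures passed. Shannon was 4.54 ± 0.239 and 4.29 ± 0.147 (exact permutation adjusted p = 0.0837), and the number of ASVs 120.5 ± 24.5 and 93.7 ± 12.1 (exact permutation adjusted p = 0.0693, n = 6 each). At -2 dpi the deposited Shannon index was 4.34 ± 0.308 and 4.01 ± 0.199 (exact permutation p = 0.0563), a difference of 0.330, and the Simpson and Inverse Simpson indices were also higher in CFA mice (exact permutation p = 0.0195 and adjusted p = 0.0779 each, n = 6 each). Before the injection the merged Shannon index was 2.33 ± 0.467 and 2.24 ± 0.402 (exact permutation p = 0.703, n = 6 each). The change per mouse was 0.694 ± 0.778 in CFA and 0.0624 ± 0.522 in naïve mice, a difference that did not pass (exact permutation p = 0.132).

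Distances between whole communities also separated the groups. Bray-Curtis distances of genus percents averaged 0.495 between groups, 0.368 within CFA mice and 0.397 within naïve mice. Group membership took 31.8% of the variation (pseudo-F 4.66, exact permutation p = 0.00216, adjusted p = 0.00325 over 3 levels). Merged sequences gave 31.2% (pseudo-F 4.54) and deposited ASVs 16.1% (pseudo-F 1.92, exact permutation adjusted p = 0.00433). The groups had already differed at -2 dpi by genera (21% of the variation, pseudo-F 2.66, exact permutation adjusted p = 0.0422) and by merged sequences (25.2%, pseudo-F 3.38, exact permutation adjusted p = 0.0325). Without mice 545 and 546 the genus pseudo-F at 14 dpi was 3.46 (exact permutation adjusted p = 0.0143).

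**Figure D5:**
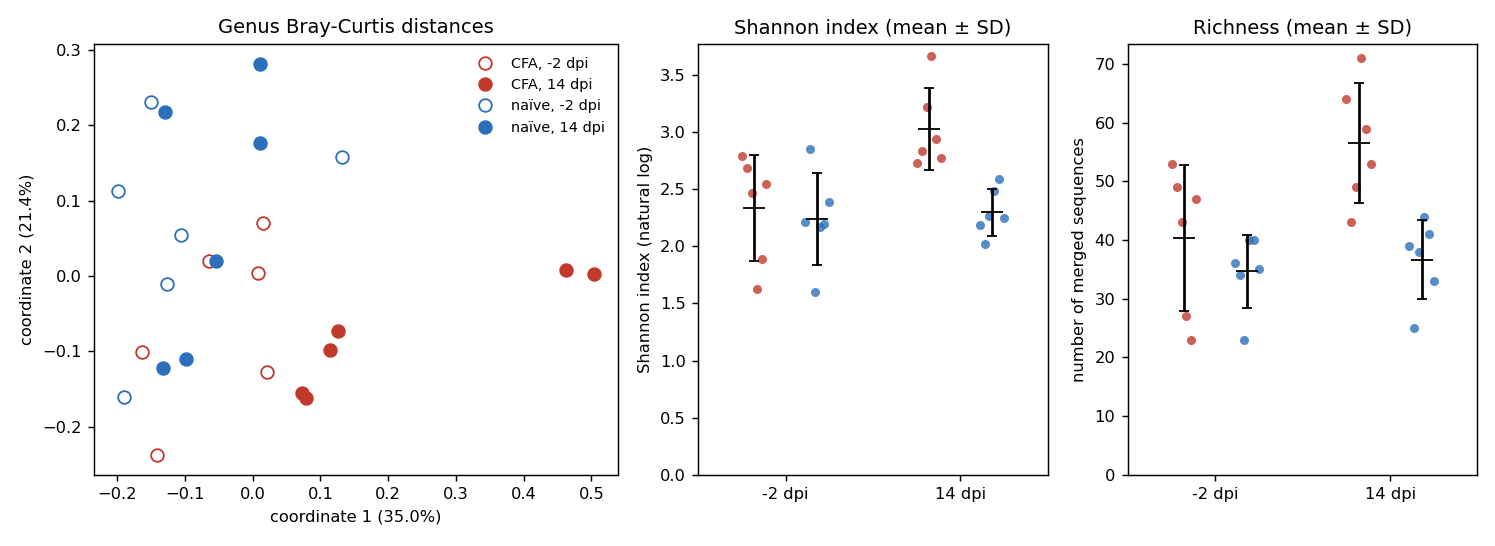
Left, principal coordinates of Bray-Curtis distances between genus percents of the 12 mice at -2 dpi (open) and 14 dpi (filled), with the share of variation on each axis, CFA red and naïve blue. Middle and right, Shannon index (natural log) and number of merged sequences per mouse with mean and SD, n = 6 per group, where CFA mice at 14 dpi (3.03 and 56.5) stand above naïve mice (2.30 and 36.7) and the 2 CFA mice far to the right on the first coordinate are 545 and 546.

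The same contrast at the neighbouring days placed 14 dpi in the time course. At 8 dpi Lachnospiraceae averaged 33% in CFA and 23% in naïve mice (n = 6 each). The averages were 20.1% and 21% at 19 dpi, and 20.0% (n = 5) and 22.1% (n = 6) at 29 dpi, so the group difference in means was largest at 14 dpi among the 5 days sampled. Erysipelotrichaceae of CFA mice averaged 0.441% at 8 dpi, 12.7% at 19 dpi and 33.8% at 29 dpi, beside 17.7%, 8.18% and 8.23% in naïve mice. Comparing the contrast at 14 dpi with that at 8 dpi, edgeR called 1 of 65 genera (1.54%), Turicibacter, which had no counts in any CFA mouse at 8 dpi and 17.5% in naïve mice (edgeR adjusted p = 0.000107). Against 19 dpi it called 6 of 65 (9.23%), and none of the 6 passed with the mouse as a replicate block. Family contrasts did not pass against either day in edgeR (1 of 23 at 8 dpi and 4 of 23 at 19 dpi had an unadjusted p under 0.05).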

How the data were processed

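Fecal DNA was amplified at 16S V3-V4 and sequenced on a MiSeq. The authors made ASV counts with DADA2 (length truncation, an expected-error filter, consensus chimera removal) and curated names by hand from Silva, GTDB, RefSeq and Greengenes, "_NA" marking ambiguous names. Versions are not given in the sources used here. The deposited counts are not normalized. The deposited table holds 89 samples, of which 1 has a total of 0, and 88 were used. The labels pair samples of a mouse by its number.

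Counts were summed by rank and, after removing primers, by identical sequence. edgeR 4.0.16 (R 4.3.3) quasi-likelihood fits used all 88 samples in 15 groups, so that they share 1 estimate of spread, TMMwsp factors from genera and taxa with counts in at least 3 samples. Percents, diversity and distances (Python 3.11.15, scipy 1.17.1, numpy 2.4.6, pandas 2.3.3) were compared by two-sided exact permutation of all 924 splits of 6 and 6 mice. Adjustment was by Benjamini-Hochberg over all taxa of a rank, at a threshold of 0.05. Percents were tested for taxa with counts in at least 3 of all samples.

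Alternatives were DESeq2 1.42.0, total counts, no filter, a filter on the 12 samples, only the 12 samples, leaving out each mouse, a mouse block, the centred log ratio with a pseudocount of 0.5, rarefying to 42233 counts, and other indices or distances. Chosen after seeing the data were unified names, the -2 dpi samples or the change for diversity, sequences in at least 3 mice, and leaving out mice 545 and 546. Scripts were tested on simulated data. Families of at least 1% or called, genera of at least 1% or called, called species, up to 10 called sequences and list members were named. Merged sequences outside that rule (Flintibacter butyricus sequence 1) were named after their values were seen. The members and lists were chosen with earlier results of these data known.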

Additional observations from a re-analysis of the deposited data

Results flagged for a closer look

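Of 60 groups of 6 values examined for a sample far from the others, 2 had one, where chance gives about 1 in 20 groups. Naïve mouse 562 had 10.0% Porphyromonadaceae, above all other naïve mice. These were counts of Prevotella_NA sequence 1 under the name Barnesiella, and with unified names Porphyromonadaceae had no counts in either group. Naïve mouse 559 had 1.63% Ruminococcaceae, below the other naïve mice.

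Effects differed between days for 7 genera by the edgeR test of the difference of contrasts. Turicibacter had a log2 contrast that was 12.84 higher at 14 than at 8 dpi. Against 19 dpi the log2 contrast at 14 dpi was 12.72 higher for Acetatifactor, 10.19 for Anaerostipes, 13.89 for Dehalobacterium, 17.19 for Marvinbryantia, 18.69 for Phocea/Angelakisella and 16.86 for Ruminococcaceae_UCG-005. These are fitted values with a group at or near 0 counts and depend on the prior count, so they are no measure of a fold. With the mouse as a replicate block none of the 6 against 19 dpi passed, and Turicibacter against 8 dpi did (edgeR adjusted p = 0.00228). Under the name Anaerostipes 2 naïve mice had counts at 19 dpi (mean 0.267%) and none at 14 dpi, with 4.60% and 4.79% in CFA mice. Anaerostipes_NA sequence 1 had no naïve counts at either day, so those naïve counts are primer variants of another sequence that bear the name. The change since -2 dpi differed between CFA and naïve mice by 0.881 percentage points for Eubacteriaceae and by -2.74 points for Peptostreptococcaceae (exact permutation adjusted p = 0.0498 each). Peptostreptococcaceae were at 0 in all 12 mice at 14 dpi, so their value is the difference at -2 dpi with its sign turned. The adjusted p of Eubacteriaceae rests on a tie with them.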

How the results depend on the processing

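The 12 mice, 6 a group, limit what exact tests of percents can show. Absence was set against a floor of 3 counts, while the lowest ASV count above 0 ran from 2 to 76 by sample. Families called by edgeR fell from 4 to 2 without a filter and numbered 2 to 4 when 1 mouse was left out (genera 5 to 7), and the cause was not tested. DESeq2 called more: 18 genera, 25 species, 176 ASVs and 74 merged sequences (8 of the 18 genera and 50 of the 74 sequences had counts in fewer than 3 of the 12 mice), and for the contrast against 8 and 19 dpi 10 and 13 genera. For changes since -2 dpi it called 2 families and 9 genera. No ASV passed without a filter, when more are tested, and merged sequences numbered 7 without a filter and 11 with total counts. Of the 17 merged sequences called, 10 had counts in at least 3 of the 12 mice, and fits of such taxa alone called 25 (18 higher, 7 lower) and, for deposited ASVs, 44 (29 higher, 15 lower, against 4 and 30). With total counts 3 of 59 genus log2 differences changed sign and their median moved by 0.34, and no family sign changed. Percent tests called 6 families and 15 genera on the centred log ratio, and 0 to 1 phyla, 0 to 5 families and 0 to 4 genera without 1 mouse (0 families without naïve mouse 563, 0 genera without naïve mice 558, 560, 561, 562 or 563). Leaving out mice leaves fewer splits, so a lost percent call need not mean a smaller difference. Without CFA mice 545 and 546 the percent tests called 0 families and 0 genera, and the merged Simpson and Inverse Simpson differences were 0.0498 and 1.80. With genera in place of sequences these were 0.066 and 2.74. At -2 dpi the merged differences were 0.0982 (Shannon), -0.00533 (Simpson), -0.286 (Inverse Simpson) and 5.67 (richness), and the ASV pseudo-F was 1.26. Differences in change since -2 dpi were -0.0749, -0.00426 and -4.72 for the deposited Shannon, Simpson and Inverse Simpson indices and 0.632, 0.0833, 5.88 and 14.2 for the merged Shannon, Simpson, Inverse Simpson and richness. The median total count differed by 13414.5 (exact permutation p = 0.0498). Pairing by mouse comes from the mouse numbers in the labels. Deviations of the same mouse at -2 and 14 dpi correlated at -0.197 to 0.252 (median 0.0156), and with the mouse as a replicate block edgeR called 0 families and 0 genera for the change since -2 dpi, 1 genus against 8 dpi and 0 against 19 dpi.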
